A study of Oryza sativa with 24 samples.

Results

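Broad H3K4me3 regions are the stretches of the rice genome where a single H3K4me3 peak spanned 3000 bp or more in at least 1 of 4 rice lines. Peaks of 3000 to 20000 bp (end minus start) were taken from the 4 H3K4me3 peak lists on chromosomes 1 to 12 and merged where they overlapped, which gave 1209 regions from 2699 peaks. All H3K4me3 regions of the 4 lists numbered 32718, so the broad ones made up 3.70% of them. Width chose these regions, so their H3K4me3 widths are given as a description with no test, while H3K9ac, H3K27me3 and DNA methylation come from other libraries.

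The 4 lines were the F1 hybrid Nipponbare/93-11, its reciprocal F1 hybrid 93-11/Nipponbare, and the parents of both, the japonica cultivar Nipponbare and the indica cultivar 93-11. All were untreated seedling shoots harvested at the 4-leaf stage after 4 weeks in soil, and a shoot holds many cell types. Each line had 1 library of each mark: chromatin immunoprecipitated with antibodies against H3K4me3, H3K9ac or H3K27me3, and DNA treated with McrBC, an enzyme that cuts methylated DNA. With 1 library for each mark and line there is no replicate error and no test between lines, and any difference between lines is a difference between 2 libraries. The labels do not say which name of a hybrid is the seed parent.

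H3K4me3, trimethylation of lysine 4 of histone H3, is placed by methyltransferases of COMPASS-like complexes and marks the start and early body of transcribed genes. H3K9ac is an acetylation found at the same active promoters, and H3K27me3 is the mark of Polycomb repressive complex activity, which in plants covers whole genes that are held silent in a tissue. DNA methylation in plant genomes is densest in transposons and is usually depleted at gene starts that carry H3K4me3. An immunoprecipitation from whole shoots reads all cells together, so overlapping peaks do not show that marks lie in the same cells.

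The 93-11/Nipponbare H3K4me3 list stood apart with the most broad peaks and the highest median peak width. It held 905 broad peaks (3.04% of its list), against 695 (2.26%) in Nipponbare/93-11, 508 (1.80%) in Nipponbare and 591 (2.15%) in 93-11. Its median peak width over all peaks was 1481 bp, against 1368 bp in Nipponbare/93-11, 1354 bp in Nipponbare and 1396 bp in 93-11. Peaks per H3K4me3 list lay between 27526 and 30697, and the number of reads behind them is unknown. The other 3 lists alone gave 978 broad regions.

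Most broad regions were only just broad. The widest peak of a region had a median of 3374 bp, with an interquartile range of 3165 to 3713 bp and a maximum of 8713 bp. In 727 regions (60.1%) it was under 3500 bp, in 317 it was 3500 bp to under 4000 bp, in 142 it was 4000 bp to under 5000 bp and in 23 it was 5000 bp or more. Together the regions spanned 4.29 Mb. At the threshold, the narrowest members had widest peaks of 3002, 3001 and 3001 bp, and the nearest regions outside had 2999 bp in 3 cases. The first of these members, on chromosome 12 from 9563000 to 9566002, measured 2991, 3002, 1720 and 2935 bp in Nipponbare/93-11, 93-11/Nipponbare, Nipponbare and 93-11, so Nipponbare was far narrower there. Another, on chromosome 1 from 7688077 to 7691078, measured 2717, 3001, 2428 and 2458 bp in the same order. The region outside the threshold on chromosome 1 from 36966230 to 36969229 measured 2840, 2874, 2781 and 2999 bp, so regions on both sides of the threshold were under 3000 bp in most lines.

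Width at or above 3000 bp was often reached in part of the lines only. A broad peak was present in 1 line at 451 regions (37.3%, 95% interval 34.6 to 40.1%), in 2 lines at 276, in 3 lines at 232 and in all 4 lines at 250 (20.7%, 18.4 to 23.1%). These and all later intervals are exact Clopper-Pearson intervals at 95% and cover counting error only. The most frequent pattern after all 4 lines was 93-11/Nipponbare alone, at 231 regions, followed by 112 regions broad in all lines but Nipponbare and 102 broad in Nipponbare/93-11 alone. Both hybrids and neither parent were broad at 89 regions, and both parents and neither hybrid at 10. The hybrid lists held more broad peaks to begin with, 695 and 905 against 508 in Nipponbare and 591 in 93-11. These counts therefore describe the lists and support nothing about the hybrids. Without the 93-11/Nipponbare list, 27.4% of the 978 regions were broad in each of the 3 lists left, an easier condition than all 4.

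Where a line was not broad, it usually had a narrower peak at the same place. Nipponbare/93-11 had a broad peak at 695 regions, 1 narrower peak at 419, 2 or more peaks with none broad at 52 and no listed peak at 43. In 93-11/Nipponbare these numbers were 905, 226, 21 and 57. Nipponbare had 508 broad regions, 562 with 1 narrower peak, 40 with 2 or more narrower peaks and 99 not listed, and 93-11 had 591, 496, 41 and 81. The single narrower peaks were wide for their lists, with medians of 2698 bp in Nipponbare/93-11, 2674 bp in 93-11/Nipponbare, 2459.5 bp in Nipponbare and 2471.5 bp in 93-11. H3K4me3 of any width was listed in all 4 lines at 1025 broad regions (84.8%), against 73.4% of all H3K4me3 regions and 90.9% of those whose widest peak was 2500 bp to under 3000 bp, the class next below.

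**Figure D1:**
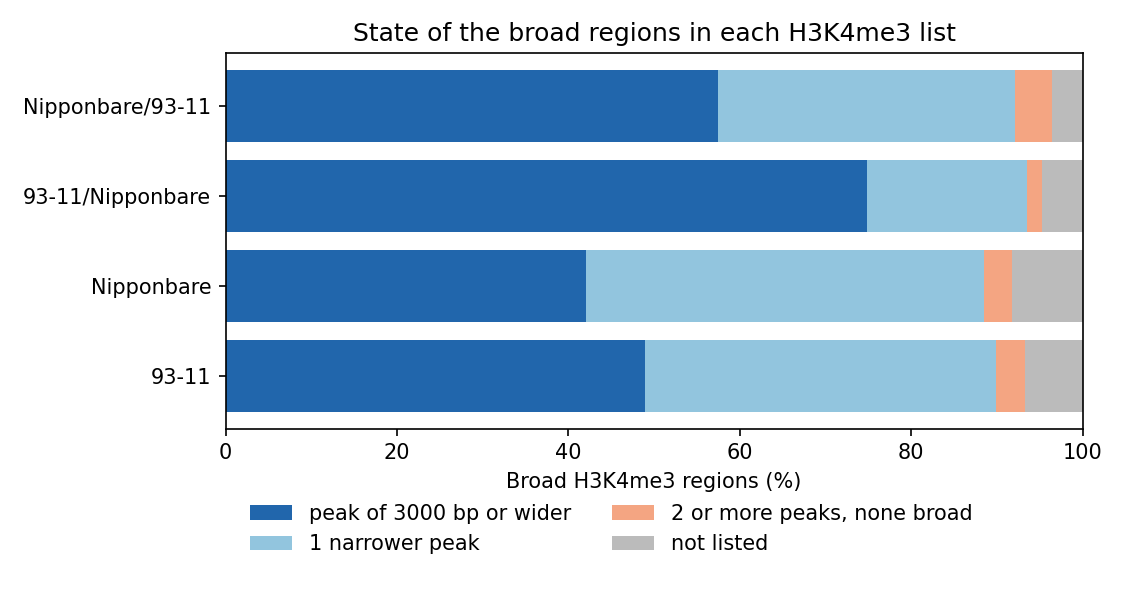
Stacked bars give, for each H3K4me3 list, the percent of the 1209 broad regions in 4 states: a peak of 3000 bp or wider, 1 narrower peak, 2 or more peaks with none broad, and not listed. The bar of 93-11/Nipponbare has the largest broad part (74.9%) and that of Nipponbare the smallest (42.0%), with 8.19% of the regions not listed in Nipponbare.

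Width was also read in a library that had no part in the choice. For each line in turn, broad regions were chosen from the other 3 lists alone and the widest overlapping peak of the remaining list was taken. That peak was 3000 bp or wider at 593 of 1107 regions (53.6%, 50.6 to 56.5%) in Nipponbare/93-11, against 2.19% of all regions of the other 3 lists. The share was 674 of 978 (68.9%) in 93-11/Nipponbare, against 2.87%. Nipponbare reached 3000 bp at 451 of 1152 regions (39.1%), against 1.58%, and 93-11 at 530 of 1148 (46.2%), against 1.86%. Regions whose widest peak in the other 3 lists was 2500 bp to under 3000 bp reached 3000 bp at 3.51, 10.3, 1.67 and 2.23% in the order Nipponbare/93-11, 93-11/Nipponbare, Nipponbare and 93-11. The median width in the list left out was 3067 bp in Nipponbare/93-11, 3281 bp in 93-11/Nipponbare, 2918 bp in Nipponbare and 2998 bp in 93-11. Great width at a place was therefore seen again in a separate library in 39.1 to 68.9% of cases, by line.

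Broad regions were cut into pieces in some lists. At 117 regions (9.68%, 8.07 to 11.5%) at least 1 line listed 2 or more H3K4me3 peaks within the region, against 1.14% of all H3K4me3 regions. Longer regions have more room for separate pieces, and the share was 6.86% among regions of 2500 bp to under 3000 bp. The smallest gap between pieces, taken once for each such region and line, had a median of 215.5 bp over 170 cases, and 150 (88.2%) were under 500 bp. Joining peaks of a line less than 500 bp apart before the width was measured raised the number of broad regions to 1534, against 1209 as listed. The widest region of all, on chromosome 5 from 27523196 to 27531926, showed this in 3 lines. Nipponbare listed a single peak of 8713 bp there, while Nipponbare/93-11, 93-11/Nipponbare and 93-11 each listed 2 peaks, the wider being 3992, 2683 and 1967 bp. H3K9ac covered 49.9% of it in Nipponbare/93-11, 48.2% in 93-11/Nipponbare, 99.6% in Nipponbare and 42.6% in 93-11, so the H3K9ac list of Nipponbare also joined what the other lists did not.

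The widest H3K4me3 regions were missing from single lists more often than regions of middle width. Regions listed in the other 3 lines were grouped by their median width there, and the 4 lines were pooled. Of regions of 4000 bp or more, 22 of 198 (11.1%, 7.10 to 16.3%) had no peak in the remaining line, and of those of 3500 bp to under 4000 bp 22 of 502 (4.38%, 2.77 to 6.56%). The share was 1.73% at 3000 bp to under 3500 bp and lowest at 1.31% (0.981 to 1.72%) at 2500 bp to under 3000 bp. Narrow regions were again missing more often, with 4.93% at 1000 bp to under 1500 bp and 11.0% under 1000 bp. The pooled figures rest most on Nipponbare, which lacked 14 of 62 regions (22.6%, 12.9 to 35.0%) of 4000 bp or more, against 5 of 48 in 93-11, 3 of 50 in Nipponbare/93-11 and 0 of 38 in 93-11/Nipponbare, which allows a share of up to 9.25% by the exact interval. Over the other 3 lines without Nipponbare the share was 8 of 136 (5.88%, 2.57 to 11.3%) at 4000 bp or more, and 1.01% (0.675 to 1.44%) at 2500 bp to under 3000 bp, so the direction was the same and the size smaller. For the other histone marks, regions were built and grouped by width in the same way from their own lists, and the shape was the same. For H3K9ac the share not listed was 11.9% at 4000 bp or more and 2.61% at 2000 bp to under 2500 bp, and for H3K27me3 16.1% and 4.21%.

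**Figure D2:**
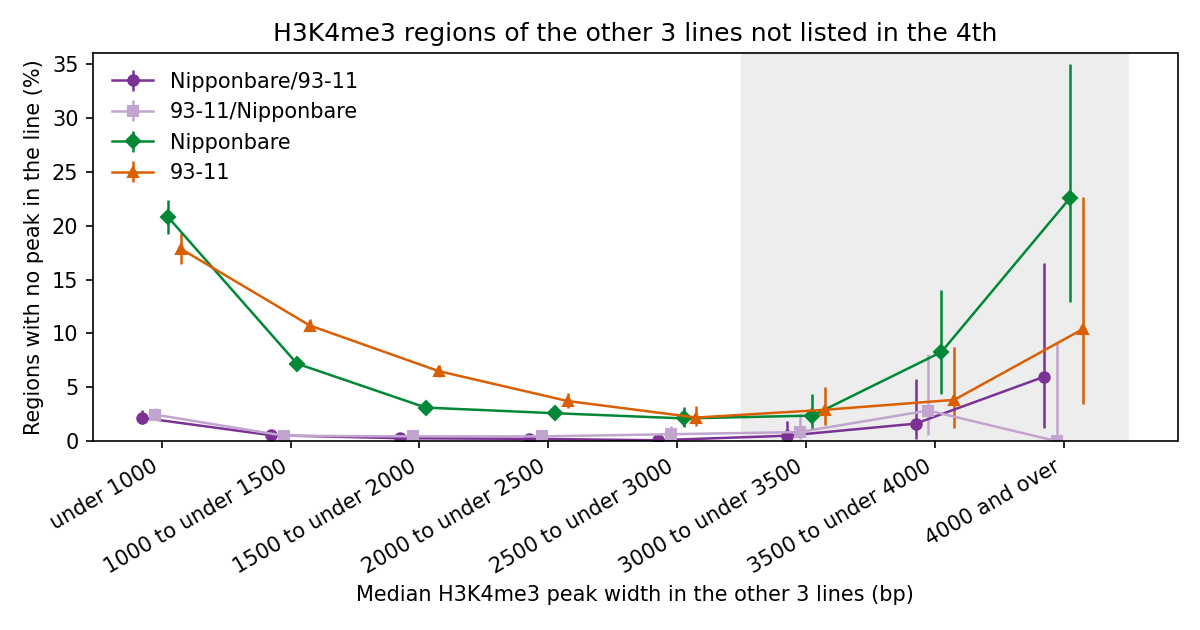
Points give, for each line, the percent of H3K4me3 regions listed in the other 3 lines that had no peak in that line, against the median peak width in the other 3 lines in bp; bars are exact 95% intervals and the shaded part marks 3000 bp and over. The share falls with width up to 2500 bp to under 3000 bp in Nipponbare and 93-11 and is higher again at 4000 bp and over, where it is 22.6% in Nipponbare and 10.4% in 93-11.

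H3K9ac accompanied nearly all broad regions in at least some line, and less often in every line than regions a little narrower. It was listed at 1089 broad regions (90.1%) in Nipponbare/93-11, 1079 (89.2%) in 93-11/Nipponbare, 983 (81.3%) in Nipponbare and 1055 (87.3%) in 93-11. Over all H3K4me3 regions the shares were 89.9, 86.7, 85.2 and 81.1% in the same order, so the broad regions were near this background in Nipponbare/93-11, slightly above it in 93-11/Nipponbare (interval 87.4 to 90.9%), below it in Nipponbare and above it in 93-11. All 4 lines listed H3K9ac at 873 broad regions (72.2%, 69.6 to 74.7%), against 70.9% of all H3K4me3 regions and 83.4% (81.5 to 85.2%) of those of 2500 bp to under 3000 bp. Within the broad regions this share was 78.7% (75.5 to 81.6%) where the widest peak was under 3500 bp, 65.6% (60.1 to 70.8%) at 3500 bp to under 4000 bp and 56.4% (48.4 to 64.1%) at 4000 bp or more. Listing in all 4 lines was lower in the wider groups for the other histone marks too: over the same 3 groups H3K4me3 itself stood at 90.4, 83.0 and 63.6% and H3K27me3 at 51.4, 49.5 and 40%. H3K9ac in at least 1 line was 97.7, 96.2 and 95.8%, so what was lower in the wider groups was mainly listing in every line. At the midpoint base, H3K9ac was present at 82.1% of broad regions in Nipponbare/93-11, 80.6% in 93-11/Nipponbare, 75.4% in Nipponbare and 76.6% in 93-11, against 90.5, 89.1, 86.2 and 85.3% of regions of 2500 bp to under 3000 bp.

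Where H3K9ac was present, the median width of its peaks was close to that of the H3K4me3 peaks. Among broad regions with 1 broad H3K4me3 peak and 1 H3K9ac peak in a line, the median H3K9ac width was 3271 bp in Nipponbare/93-11 (581 regions), 3149.5 bp in 93-11/Nipponbare (790), 3399 bp in Nipponbare (410) and 3264 bp in 93-11 (504). The median ratio of H3K9ac to H3K4me3 width was 0.994, 0.951, 1.02 and 0.988 in that order. Choosing regions by H3K4me3 width by itself lowers such a ratio, and at regions of 1000 bp to under 1500 bp it was 1.08, 1.05, 1.18 and 1.09. Region by region at the broad ones, the Pearson correlation of the log widths was 0.273, 0.236, 0.372 and 0.255, with H3K4me3 width cut at 3000 bp. An H3K9ac peak of 3000 bp or wider lay on 52.0, 47.1, 49.1 and 44.7% of broad regions, against 9.08, 7.91, 12.2 and 7.54% of regions of 2500 bp to under 3000 bp and 2.93, 2.64, 3.22 and 2.5% of all H3K4me3 regions. Merging the H3K9ac peaks of 3000 bp or wider gave 1659 regions. Of the broad H3K4me3 regions 914 (75.6%) overlapped 1 of these, against 5.3% of all H3K4me3 regions and 19.95% of those of 2500 bp to under 3000 bp, and 55.0% of the wide H3K9ac regions overlapped a broad H3K4me3 region. Counting a wide peak in any line, breadth was thus shared between the 2 active marks at most broad H3K4me3 regions.

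A small set of broad regions carried no H3K9ac peak in any line. There were 36 (2.98%, 2.09 to 4.10%), against 4.47% of all H3K4me3 regions, and 4 of the 36 were broad for H3K4me3 in all 4 lines. The share over all regions includes 16.0% of those under 1000 bp. At regions of 2500 bp to under 3000 bp it was 1.91% (1.30 to 2.71%), with an interval that overlaps that of the broad regions. The region on chromosome 4 from 22614418 to 22618838 had H3K4me3 peaks of 4260, 4006, 4044 and 3842 bp in Nipponbare/93-11, 93-11/Nipponbare, Nipponbare and 93-11. H3K27me3 covered 91.3, 49.4, 49.3 and 51.3% of it in the same order, and DNA methylation was listed in Nipponbare alone, over 5.88% of its length. On chromosome 5 from 27591444 to 27595760, H3K4me3 measured 4167 bp in 93-11/Nipponbare, 3742 bp in Nipponbare and 4316 bp in 93-11 and was not listed in Nipponbare/93-11. H3K27me3 covered 58.2% of that region in Nipponbare/93-11, 50.7% in 93-11/Nipponbare and 31.4% in Nipponbare and was not listed in 93-11, so it was present both with and without H3K4me3. On chromosome 9 from 16354504 to 16358932, H3K4me3 measured 4296 bp in 93-11/Nipponbare, 2600 bp in Nipponbare and 4294 bp in 93-11, and H3K27me3 was listed in 93-11/Nipponbare alone.

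Counting an overlap of at least 1 bp, H3K27me3 was listed at a majority of broad regions in every line, and longer regions meet more peaks. It was listed at 884 (73.1%, 70.5 to 75.6%) in Nipponbare/93-11, 897 (74.2%) in 93-11/Nipponbare, 750 (62.0%) in Nipponbare and 803 (66.4%) in 93-11, against 50.8, 50.8, 44.6 and 46.3% of all H3K4me3 regions. Regions of 2500 bp to under 3000 bp stood at 75.7, 75.7, 68.1 and 69.8% in the same order. H3K27me3 covered at least 50% of the region at 51.1, 53.3, 41.4 and 43.8% of broad regions, against 46.9, 47.4, 40.5 and 42.1% of all. All 4 lines listed it at 597 broad regions (49.4%, 46.5 to 52.2%), against 33.7% of all and 56.6% (54.2 to 59.1%) of regions of 2500 bp to under 3000 bp. No line listed it at 181 broad regions (14.97%), against 38.7% of all and 15.1% of those of 2500 bp to under 3000 bp. At least 1 line listed it at 1028 broad regions (85.03%), against 61.3% of all and 84.9% of those of 2500 bp to under 3000 bp, so the 2 widest classes were level. No list of a control library was used here, and the overlap that any immunoprecipitation would give was not measured.

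By length, the H3K27me3 part of a broad region was smaller than in regions of 2500 bp to under 3000 bp. It covered on average 49.2% of a broad region in Nipponbare/93-11, 51.0% in 93-11/Nipponbare, 40.9% in Nipponbare and 43.2% in 93-11, a mean of 46.1% over the 4 lines with an SD of 4.77 between them. In regions of 2500 bp to under 3000 bp the mean was 53.0%, and over all H3K4me3 regions it was 38.9%. H3K9ac coverage was also smaller, with means over the 4 lines of 72.1% in broad regions and 79.2% in regions of 2500 bp to under 3000 bp. Where 1 broad H3K4me3 peak met 1 H3K27me3 peak, the median H3K27me3 width was 2607.5 bp in Nipponbare/93-11 (508 regions), 2425.5 bp in 93-11/Nipponbare (658), 2536 bp in Nipponbare (319) and 2339 bp in 93-11 (397). The H3K4me3 width there was held at 3000 bp or more by the choice of regions, so the 2 widths are not set against each other. H3K27me3 covered at least 80% of the region in every line at 171 broad regions (14.1%, 12.2 to 16.2%), against 18% of all H3K4me3 regions. An H3K27me3 peak of 3000 bp or wider lay on 22.3% of broad regions in Nipponbare/93-11, 24.2% in 93-11/Nipponbare, 18.2% in Nipponbare and 19.3% in 93-11, against 3.87, 4.14, 2.79 and 3.15% of all H3K4me3 regions. Such peaks merged into 2203 regions. Of the broad H3K4me3 regions 382 (31.6%) overlapped 1 of these, against 6.51% of all H3K4me3 regions and 17.5% of those of 2500 bp to under 3000 bp, and 17.4% of the wide H3K27me3 regions overlapped a broad H3K4me3 region. The overlap of breadth was thus less complete than with H3K9ac.

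**Figure D3:**
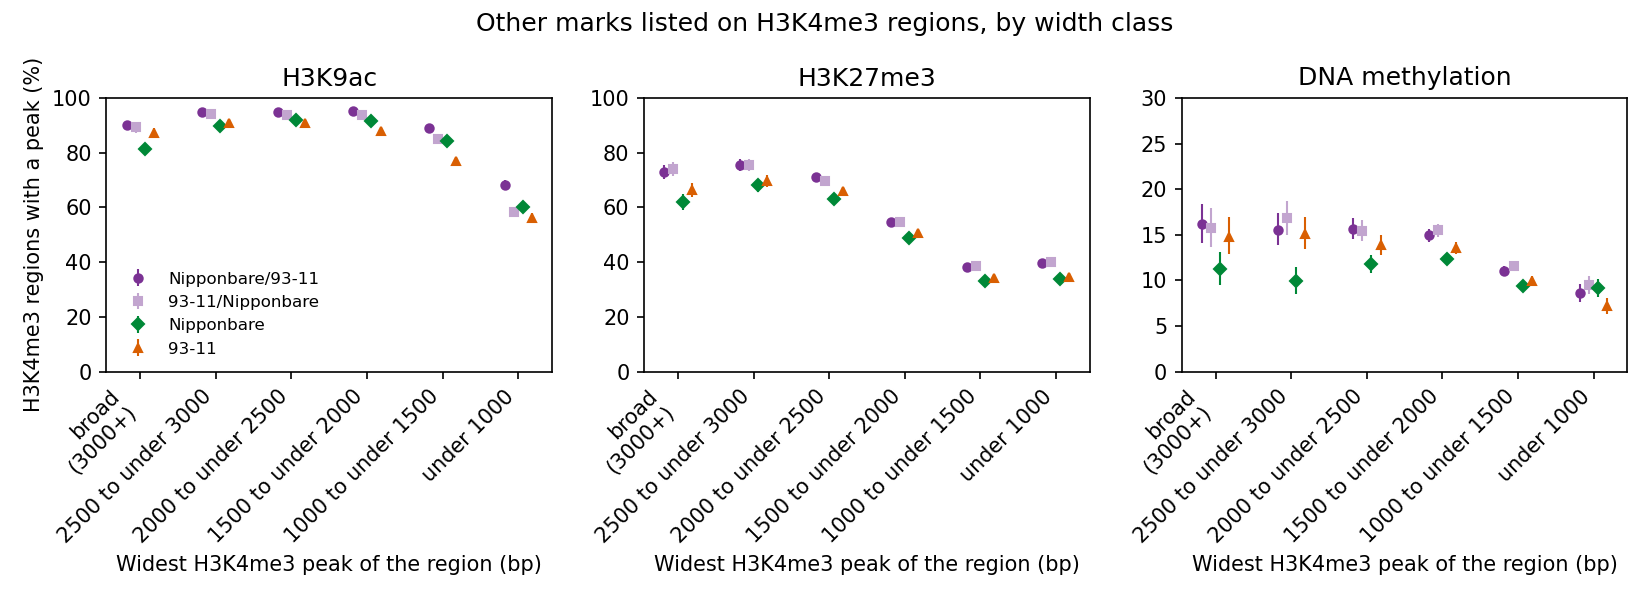
Points give the percent of H3K4me3 regions with a peak of H3K9ac, H3K27me3 or DNA methylation (1 bp of overlap) in each line, for 6 classes of widest H3K4me3 peak in bp, broad regions at the left; bars are exact 95% intervals, and the axis for DNA methylation ends at 30%. H3K9ac is lower in broad regions than in the next class in all 4 lines, and H3K27me3 is 62.0 to 74.2% in broad regions.

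Along the broad regions, both other histone marks were most frequent at or close to the middle. H3K9ac covered 75.1 to 82.5% of regions next to the midpoint, by line, and 44.5 to 51.1% in the outermost twentieth of the length on each side. H3K27me3 covered 50.7 to 62.3% next to the midpoint and 20.2 to 25.7% in the outermost part. Between 500 and 1000 bp outside the edge both were rare, at 3.18 to 4.38% for H3K9ac and 2.48 to 3.47% for H3K27me3. In regions of 2000 bp to under 2500 bp, H3K9ac reached 88.6 to 93.1% next to the midpoint and H3K27me3 60.8 to 68.7%, higher than in the broad regions in the same line for both marks. The edges set by the widest line of a merged region lie outside the peaks of the other lines, which bears on the outer values.

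**Figure D4:**
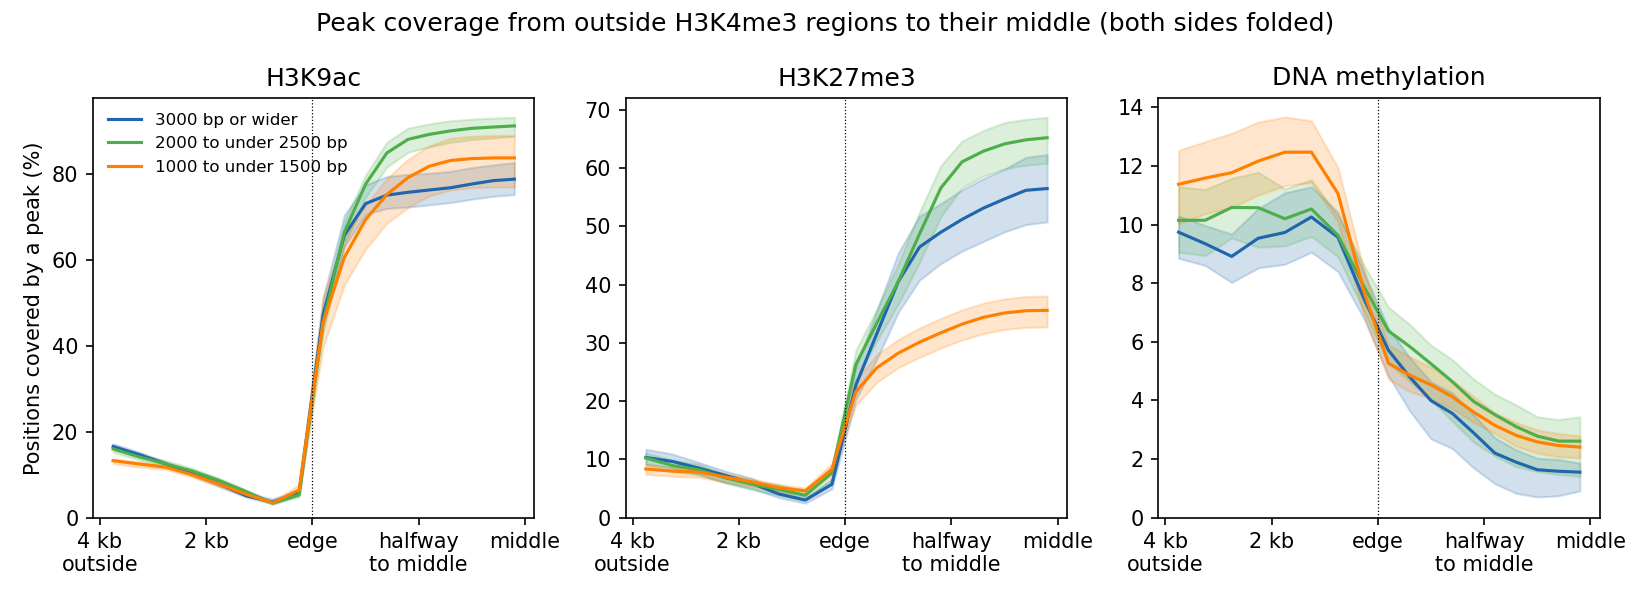
Lines give the mean over the 4 lines, and shading the range of the 4 lines, of the percent of regions covered by H3K9ac, H3K27me3 or DNA methylation from 4 kb outside an H3K4me3 region to its middle, both sides folded, for 3 width classes; outside positions are in kb and inside positions are relative to region length. For the broad regions the means of H3K9ac and H3K27me3 are highest at the middle, and the mean of DNA methylation is lowest there (0.910 to 1.86% by line).

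The 3 histone marks met at many broad regions. All 3 were listed in all 4 lines at 472 broad regions (39.0%, 36.3 to 41.9%), against 26.5% of all H3K4me3 regions and 50.2% of those of 2500 bp to under 3000 bp. The next shares count, for each line, only the merged regions where that line had a broad peak, with overlap taken anywhere on the merged region. Both H3K9ac and H3K27me3 were listed at 69.2% in Nipponbare/93-11, 67.7% in 93-11/Nipponbare, 55.1% in Nipponbare and 62.8% in 93-11, against 49.9, 48.8, 44 and 48.6% of all regions with an H3K4me3 peak in that line. H3K9ac without H3K27me3 was listed at 19.7, 23.3, 26.6 and 26.1% in that order, against 43.4, 42.2, 48.4 and 43.8% of all regions with an H3K4me3 peak in the line. H3K27me3 without H3K9ac was listed at 6.04, 6.19, 9.06 and 5.25%, against 2.67, 3.3, 2.99 and 2.69%. Neither was listed at 5.04, 2.76, 9.25 and 5.92%, against 4.08, 5.76, 4.54 and 4.91%. Regions broad in all 4 lines had H3K27me3 in all 4 lines at 56.8% (50.4 to 63.0%) and H3K9ac at 78.8% (73.2 to 83.7%). Regions broad in 1 line had 48.1% (43.4 to 52.8%) and 71.6% (67.2 to 75.7%), and the intervals of these pairs overlap.

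The region on chromosome 4 from 22092790 to 22098826 was broad and nearly even in all lines. H3K4me3 measured 5716 bp in Nipponbare/93-11, 5962 bp in 93-11/Nipponbare, 5616 bp in Nipponbare and 5969 bp in 93-11, and H3K27me3 covered 90.9, 90.9, 89.1 and 90.5% of the region in that order. H3K9ac covered 92.03, 91.8 and 60.6% in the first 3 of these lines and was not listed in 93-11. It was the widest region with H3K27me3 over at least 80% of its length in every line. The next, on chromosome 1 from 42510346 to 42514866, had H3K4me3 of 4288 bp in Nipponbare/93-11, 4360 bp in 93-11/Nipponbare and 4449 bp in 93-11, and Nipponbare listed neither H3K4me3 nor H3K9ac there while H3K27me3 covered 96.6% of it. On chromosome 11 from 1772153 to 1776458, H3K27me3 covered 96.4 to 100% by line, and H3K4me3 measured 4084, 4305 and 1814 bp in Nipponbare/93-11, 93-11/Nipponbare and 93-11 and was not listed in Nipponbare. These regions were chosen for H3K27me3 over at least 80% of their length in every line, so its evenness was set by the choice. On the last 2 of them, H3K4me3 was not listed in Nipponbare.

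Broad regions without H3K27me3 included some of the widest. On chromosome 4 from 33238312 to 33244107, H3K4me3 measured 3361 bp in Nipponbare/93-11, 5791 bp in 93-11/Nipponbare, 4711 bp in Nipponbare and 3270 bp in 93-11. H3K9ac covered 84.4, 54.8, 56.2 and 56.9% of it in the same order, and neither H3K27me3 nor DNA methylation was listed in any line. On chromosome 8 from 28131042 to 28137615, by contrast, all 3 histone marks were listed in all 4 lines, with H3K4me3 peaks of 6516 bp in Nipponbare/93-11, 6560 bp in 93-11/Nipponbare and 6229 bp in 93-11, and 2 peaks in Nipponbare, the wider of 3137 bp. On chromosome 12 from 487243 to 492637, H3K4me3 peaks measured 5394, 5067 and 5330 bp in Nipponbare/93-11, 93-11/Nipponbare and 93-11, and Nipponbare again had 2 pieces, the wider of 3183 bp.

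DNA methylation met the edges of broad regions and seldom their middle. A DNA methylation peak overlapped 195 broad regions (16.1%, 14.1 to 18.3%) in Nipponbare/93-11, 190 (15.7%) in 93-11/Nipponbare, 136 (11.2%) in Nipponbare and 179 (14.8%) in 93-11, against 13, 13.5, 10.7 and 11.7% of all H3K4me3 regions. At least 1 line listed it at 276 broad regions (22.8%, 20.5 to 25.3%), against 21.1% of all and 23.3% of those of 2500 bp to under 3000 bp, so the broad regions were near the background. All 4 lines listed it at 71 (5.87%, 4.61 to 7.35%), against 4.15%. At the midpoint base it was present at 1.99% in Nipponbare/93-11, 1.65% in 93-11/Nipponbare, 0.910% in Nipponbare and 1.82% in 93-11, against 2.70, 3.05, 2.21 and 2.57% of all H3K4me3 regions. Regions of 2500 bp to under 3000 bp were level with the broad ones at 1.98, 1.79, 0.803 and 2.16%. Of the DNA methylation peaks on broad regions, 78.3, 76.4, 89.1 and 76.6% crossed 1 edge in that order of lines, and 21.2, 23.1, 10.1 and 22.8% lay wholly inside. Where listed, DNA methylation covered a median of 19.7, 19.7, 14.1 and 19.1% of the region.

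DNA methylation near the broad regions was listed slightly less often than near H3K4me3 regions as a whole, and about as often as near those next below in width. A DNA methylation peak lay on or within 2 kb of 613 broad regions (50.7%, 47.8 to 53.6%) in at least 1 line, against 55.2% of all H3K4me3 regions, 52.4% (49.9 to 54.8%) of those of 2500 bp to under 3000 bp and 52.9% of those of 2000 bp to under 2500 bp. With DNA methylation peaks of at least the median width alone, the share at broad regions was 25.3%. The median distance to the nearest DNA methylation peak was 3537 bp in Nipponbare/93-11, 3435 bp in 93-11/Nipponbare, 4142 bp in Nipponbare and 3890 bp in 93-11. Coverage by DNA methylation between 500 and 1000 bp outside the edge was 8.40 to 10.4%, against 0.910 to 1.86% next to the midpoint.

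At a single broad region a DNA methylation peak covered the whole length, in every line. On chromosome 2 from 28709483 to 28716283, H3K4me3 was listed in Nipponbare alone, as a peak of 6800 bp, the second widest of the 1209 regions. DNA methylation peaks of 7340 bp in Nipponbare/93-11, 7318 bp in 93-11/Nipponbare, 8463 bp in Nipponbare and 7289 bp in 93-11 covered 100% of it. H3K9ac peaks of 6802 bp in Nipponbare/93-11, 7115 bp in Nipponbare and 6805 bp in 93-11 also covered the region nearly whole, and 93-11/Nipponbare listed no H3K9ac and no line H3K27me3. The next widest regions with DNA methylation in all 4 lines were methylated at an end only. On chromosome 7 from 2096768 to 2102727, H3K4me3 measured 5786, 5546, 5267 and 5632 bp in Nipponbare/93-11, 93-11/Nipponbare, Nipponbare and 93-11, and DNA methylation covered 6.93, 6.71, 2.99 and 6.70% of it. H3K9ac was listed there in Nipponbare/93-11 alone. On chromosome 7 from 22803622 to 22808181, H3K4me3 measured 4350, 4364, 4491 and 4337 bp in the same order, DNA methylation covered 4.58 to 7.04%, and H3K9ac was listed in Nipponbare alone.

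Between the parents, strong differences in H3K4me3 width were more frequent at broad regions than at all regions, which the choice by the widest line favours. Among 976 broad regions with 1 H3K4me3 peak in each parent, the median width was 2961 bp in Nipponbare and 3035 bp in 93-11, and the median ratio of Nipponbare over 93-11 was 0.975. Nipponbare was at least 1.5 times wider at 92 regions (9.43%) and 93-11 at 113 (11.6%), against 2.51 and 3.91% of all H3K4me3 regions. Among regions of 2500 bp to under 3000 bp these shares were 6.29 and 7.64%, and the median ratio was 0.971. Because members were chosen for width in any line, these shares describe the regions and support nothing about the parents.

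Among regions with 1 H3K4me3 peak in each parent, those with the largest parental ratios differed in how the hybrids compared. On chromosome 3 from 4258194 to 4263640, H3K4me3 measured 5112 bp in Nipponbare/93-11, 5403 bp in 93-11/Nipponbare, 1348 bp in Nipponbare and 5145 bp in 93-11, so both hybrids were as wide as 93-11. H3K9ac followed with 5125, 5672, 1931 and 5235 bp, while H3K27me3 was listed in both hybrids and Nipponbare and not in 93-11. On chromosome 3 from 1638980 to 1644084, the H3K4me3 widths were 4957, 4946, 4789 and 1282 bp in the same order, so both hybrids were as wide as Nipponbare. H3K9ac there was 5169 bp in 93-11, the line with the narrow H3K4me3 peak, and 2610 bp in Nipponbare. On chromosome 7 from 15443977 to 15447977, the H3K4me3 widths were 3642, 4000, 785 and 2997 bp, and H3K9ac was listed in all lines but Nipponbare. On chromosome 3 from 26900934 to 26904483, the hybrids differed: 93-11/Nipponbare had 3524 bp, near the 3546 bp of 93-11, and Nipponbare/93-11 had 2 pieces, the wider of 1043 bp, near the 1048 bp of Nipponbare. H3K9ac at that region was 961, 1079, 1307 and 1124 bp in Nipponbare/93-11, 93-11/Nipponbare, Nipponbare and 93-11, much narrower than the wide H3K4me3 peaks.

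Among the same regions with 1 peak in each parent, the largest ratio of Nipponbare over 93-11, 4.15, was on chromosome 1 from 4754928 to 4758234. H3K4me3 measured 3306 bp in Nipponbare and 797 bp in 93-11, with 1403 bp in 93-11/Nipponbare and 2 pieces in Nipponbare/93-11, the wider of 1474 bp, so the hybrids lay between the parents. On chromosome 11 from 5766636 to 5770115, the widths were 3255 bp in Nipponbare/93-11, 3320 bp in 93-11/Nipponbare, 3349 bp in Nipponbare and 939 bp in 93-11. H3K9ac had the same pattern with 3386, 3482, 3414 and 1111 bp, and H3K27me3 was listed in both hybrids and Nipponbare and not in 93-11.

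The mean width of the hybrids was on the whole a little above that of the parents, at broad regions as at others. The hybrids differed in this. Over all peaks of a list, the median was 1368 bp in Nipponbare/93-11, between the 1354 bp of Nipponbare and the 1396 bp of 93-11. In 93-11/Nipponbare it was 1481 bp. Among 914 broad regions with 1 H3K4me3 peak in each of the 4 lines, the ratio of the hybrids' mean width over the parents' mean width had a median of 1.06, against 1.05 over all 23676 such H3K4me3 regions. The hybrids were at least 1.5 times wider at 63 broad regions (6.89%) and the parents at 10 (1.09%), against 1.4 and 0.199% of all. At regions of 2500 bp to under 3000 bp these shares were 4.60 and 0.877%. Nipponbare/93-11 was wider than both parents at 379 (41.5%, 38.2 to 44.7%) and 93-11/Nipponbare at 579 (63.3%, 60.1 to 66.5%), against 35.9 and 57.2% of all. Regions of 2500 bp to under 3000 bp stood at 37.5 and 59.8%. Nipponbare/93-11 was narrower than both parents at 210 (23.0%) and 93-11/Nipponbare at 80 (8.75%), against 27.9 and 12.2% of all. In the class of 2500 bp to under 3000 bp the shares were 24.9 and 10.4%. Library and line cannot be told apart here, and the 93-11/Nipponbare list had the highest median peak width and the most broad peaks. Between the hybrids, the median ratio of Nipponbare/93-11 over 93-11/Nipponbare was 0.962 at 1058 broad regions and 0.9501 over all regions. Nipponbare/93-11 was at least 1.5 times wider at 55 (5.20%) and 93-11/Nipponbare at 110 (10.4%), against 1.03 and 3.93% of all. At regions of 2500 bp to under 3000 bp they were 2.90 and 5.74%. Because members were chosen for width in any line, which favours such differences, these shares describe the regions and support nothing about the hybrids.

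Among regions broad in the hybrids but in no parent, the widest was that of chromosome 1, from 25443200 to 25448808. H3K4me3 measured 4376 bp in Nipponbare/93-11, 5608 bp in 93-11/Nipponbare and 2929 bp in Nipponbare and was not listed in 93-11, and H3K9ac was listed in 93-11/Nipponbare alone. On chromosome 10 from 21859842 to 21864910, 93-11/Nipponbare had 5068 bp and Nipponbare/93-11 2 peaks, the wider of 3101 bp. Nipponbare there had 2 pieces, the wider of 1731 bp, and 93-11 had 1502 bp, while H3K9ac was 5080 bp in Nipponbare and 5176 bp in 93-11. In the parents, the wide H3K9ac peak therefore had no H3K4me3 peak of that width. In the other direction, on chromosome 7 from 21651489 to 21655635, H3K4me3 measured 3131 bp in Nipponbare and 4146 bp in 93-11 and was listed in neither hybrid. H3K9ac at the same place was 2837 bp in Nipponbare/93-11, 3000 bp in 93-11/Nipponbare, 3181 bp in Nipponbare and 3125 bp in 93-11. H3K9ac and H3K27me3 were thus listed in both hybrids at a region where their H3K4me3 lists had no peak.

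Where 1 parent alone listed another mark at broad regions, both hybrids listed it at 25.5 to 67.6%, by mark and parent. Over all H3K4me3 regions with these patterns the range was similar, 22.4 to 68.5%. The counts at broad regions are small, and no intervals were computed for them. H3K9ac was listed in Nipponbare and not 93-11 at 67 broad regions, of which both hybrids listed it at 38 (56.7%), against 68.5% over all H3K4me3 regions with that pattern. In 93-11 and not Nipponbare it was listed at 139, of which both hybrids listed it at 94 (67.6%), against 60.2%. For H3K27me3 these numbers were 69 of 110 (62.7%, against 49.3%) and 95 of 163 (58.3%, against 52.4%). For DNA methylation they were 14 of 55 (25.5%, against 22.4%) and 52 of 98 (53.1%, against 51.8%), near the background in both directions. Where both parents listed a mark, both hybrids did so at 95.3% for H3K9ac, 93.3% for H3K27me3 and 87.7% for DNA methylation, against 96.4, 94 and 84.1% over all H3K4me3 regions.

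Broad regions were spread over all 12 chromosomes, and their number followed chromosome length only in part. Chromosome 1 held 188 and chromosome 3 held 184, and chromosomes 11 and 12 held 55 and 46. The shorter chromosomes 9 and 10 held 64 and 60. Per Mb, chromosome 3 had the highest density, 5.06, and chromosome 12 the lowest, 1.67, where all H3K4me3 regions had densities of 105 and 72.2 per Mb. As a share of the H3K4me3 regions of the chromosome, broad ones made up 4.83% (4.17 to 5.56%) on chromosome 3, 2.59% (1.95 to 3.35%) on chromosome 11 and 2.32% (1.70 to 3.08%) on chromosome 12, against 3.70% on the 12 chromosomes together. Chromosome 3 held 15.2% of the broad regions and 11.6% of all H3K4me3 regions.

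**Figure D5:**
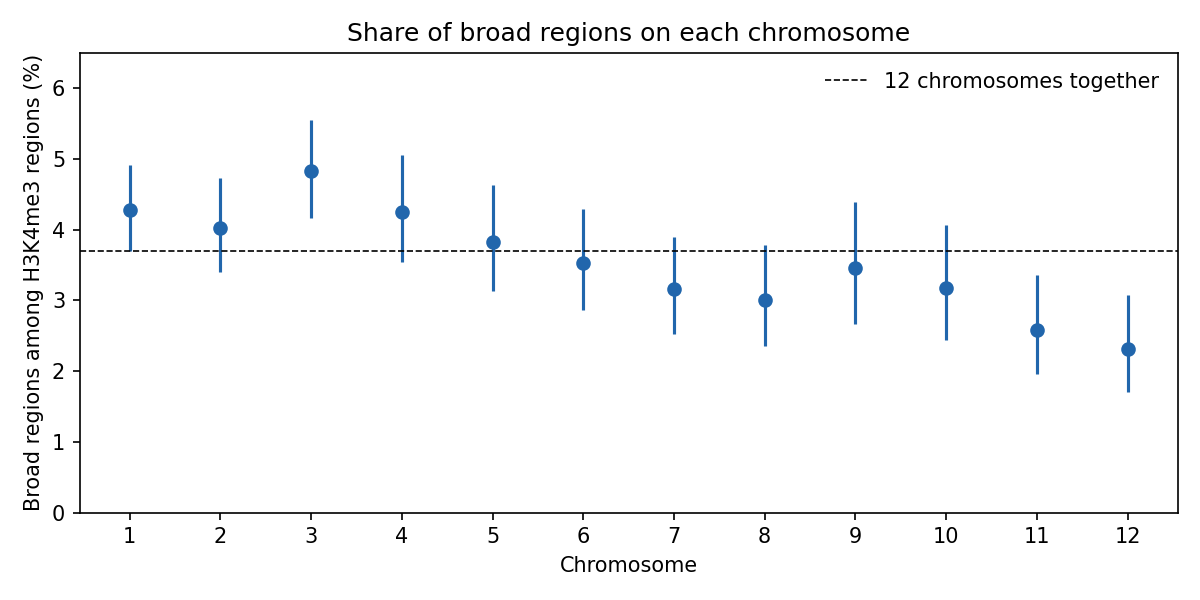
Points give the percent of the H3K4me3 regions of each chromosome that are broad, with exact 95% intervals; the dashed line is the share over the 12 chromosomes, 3.70%. The interval of chromosome 3 lies above the line and those of chromosomes 11 and 12 below it.

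Along the chromosomes, broad regions lay much as other wide H3K4me3 regions did. Of them 24.6% lay more than 10 Mb from the nearer end of the chromosome's listed span, against 29.9% of narrower H3K4me3 regions, and the median distance was 6.25 Mb against 6.64 Mb. Regions of 2000 bp to under 2500 bp were close to the broad ones, with 26.0% over 10 Mb and a median of 5.98 Mb. The 5 longest stretches without a broad region lay on chromosomes 9, 5, 11 and 12, the longest on chromosome 9 from 5557769 to 10731133 (5.17 Mb), which held 285 narrower H3K4me3 regions. Within 50 kb of a broad region there were on average 9.95 ± 3.005 other H3K4me3 regions (SD, 1209 regions), against 9.52 ± 3.48 around narrower regions (31509) and 9.98 ± 3.22 around those of 2000 bp to under 2500 bp (4082). Neighbouring broad regions were a median of 139 kb apart, and 140 regions (11.6%) were in 1 of 73 pairs at most 10 kb apart. The same share was not measured for other H3K4me3 regions, so it does not show whether broad regions cluster.

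The closest 3 broad regions lay within 14.3 kb on chromosome 4, from 26353428 to 26367683. The first measured 2754 bp in Nipponbare/93-11, 3090 bp in 93-11/Nipponbare, 2636 bp in Nipponbare and 2903 bp in 93-11. The next was listed in the parents only, with 2764 bp in Nipponbare and 3147 bp in 93-11. The last measured 3569 bp in 93-11/Nipponbare, and the other lines had narrower peaks there. A single H3K9ac peak of 6478 bp in Nipponbare/93-11 ran over the first and the next, although that line listed no H3K4me3 at the second of them.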

How the data were processed

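The authors deposited 1 peak list for each mark and line, with 3 columns (chromosome, start, end), no header and no height, score or p-value; peak positions are the only measurement, per the labels and the values. Not given in the sources used here are the aligner, peak caller and threshold, any control library, the genome build, and whether positions count from 0 or 1. Positions are printed as deposited. Neither gene names nor sequences are given, since no genome known to be of this build was used. The 24 labelled samples include mRNA and small RNA libraries that were not analysed here. The members, width classes and comparisons were chosen with earlier results of these data known.

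H3K4me3 regions were built from the widest class down: peaks of 3000 to 20000 bp were merged by overlap, then remaining peaks that touched none of these regions were merged in classes with lower bounds of 2500, 2000, 1500, 1000 and 0 bp. A mark was listed at a region if 1 of its peaks overlapped it by at least 1 bp. Where a line had several peaks, the widest was taken. The shares had exact Clopper-Pearson 95% intervals; read depth is unknown, and the intervals cover counting error only. Named regions followed a rule: the widest on each chromosome, and up to 3 for each of these: H3K4me3 in 1 line only, largest and smallest parental ratio, broad in hybrids or parents only, no H3K9ac, H3K27me3 over 80% or absent, DNA methylation in all lines, nearest the threshold, and closest together. Alternatives changed the width threshold, the upper limit, joining, list length, overlap and the other marks' lists. Leaving out the 93-11/Nipponbare list was added after the data were seen. The overlap and merging routines were tested on simulated data. Python 3.11.15, numpy 2.4.6, pandas 2.3.3 and scipy 1.17.1 were used.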

Additional observations from a re-analysis of the deposited data

How the results depend on the processing

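Of 71 values recomputed over 9 settings for the 10 main results, 38 stayed within the counting interval of the value as reported (for the number of regions within 1.5 times, for H3K27me3 coverage within 1 SD between the lines) and 33 moved; the cause was not tested. At a width threshold of 2500 bp there were 2828 regions, 29.5% of them broad in all 4 lines, and 58.4% reached the threshold in the line left out; H3K9ac and H3K27me3 in all 4 lines stood at 78.6 and 53.5% and regions in pieces at 8.06%. At 4000 bp there were 165 regions, and these shares were 10.3, 39.4, 56.4, 40 and 21.2%, with H3K27me3 coverage of 36.2% and DNA methylation within 2 kb at 47.3%. Joining peaks under 500 bp apart gave 18.0% broad in all 4 lines, 48.7% in the line left out, H3K9ac at 76.4% and pieces at 12.97%. Equal numbers of broad peaks per line gave 47.9% in the line left out and H3K9ac at 69.0%. Requiring at least 50% of the region to be covered gave H3K9ac at 56.4%, H3K27me3 at 29.8% and DNA methylation in at least 1 line at 1.32%, and the midpoint base gave 58.4, 37.9 and 2.56%. Keeping the other marks' peaks of at least the median width gave 63.4, 37.1 and 10.8%, and DNA methylation within 2 kb at 25.3%. Without the 93-11/Nipponbare H3K4me3 list, a setting added after the data were seen, 27.4% were broad in all lines left, 54.5% reached the threshold in the line left out and 7.46% were in pieces. These shares rest on fewer lists than those as reported, so the measures are not alike. No setting moved the share on chromosome 3 past its interval. No paired analysis was possible because each mark and line had 1 library. Read depth is unknown, so absence from a list could not be set against a detection limit.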

Other observations

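H3K9ac and H3K27me3 had the same relation of listing to width at their own regions. Nipponbare lacked 20.8% of the H3K9ac regions that measured 4000 bp or more in the other 3 lines (16 of 77) and 20.9% of such H3K27me3 regions (27 of 129), and 93-11 lacked 13.3% (12 of 90) and 19.4% (21 of 108). Nipponbare/93-11 lacked 8% (6 of 75) and 8.24% (7 of 85), and 93-11/Nipponbare 5.88% (5 of 85) and 12.6% (12 of 95). At 2500 bp to under 3000 bp these shares were 0.445 to 5.18% for H3K9ac and 1.72 to 6.85% for H3K27me3, by line.

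At broad regions with no H3K9ac peak in a line that was itself broad, the nearest H3K9ac peak of that line lay at a median distance of 2689 bp in Nipponbare/93-11, 3014 bp in 93-11/Nipponbare, 3563 bp in Nipponbare and 3953 bp in 93-11.

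The peak over 20000 bp that was left out lay in the 93-11/Nipponbare H3K4me3 list, on chromosome 9 from 3 to 36957 (36954 bp). None of the other 15 lists had a peak overlapping it.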
